A study of Mus musculus with 12 samples.

Results

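The mouse genes named Zfp followed by a number encode zinc finger proteins, and those with enough reads to be followed library by library in the liver are described here. The members were chosen as the rows of the gene table whose name is Zfp plus digits and whose raw count, summed over 12 libraries, was at least 1200. The rule took 131 of 376 Zfp rows and of 55487 genes in the table, and 15 of the Zfp rows had no count at all. Abundance therefore chose the members, and their levels are given as a description only. Just inside the limit were Zfp748 with a summed count of 1206 and Zfp930 with 1212, and just outside were Zfp949 with 1198 and Zfp758 with 1184.

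Livers of male, young adult, otherwise healthy outbred Kunming mice were sequenced after daily oral gavage for 7 days. The MTP+CR group received triptolide, a diterpenoid of the thunder god vine that blocks transcription by RNA polymerase II, at 300 μg/kg with crocin, a carotenoid glycoside of saffron, at 100 mg/kg. The MTP group received triptolide alone at 300 μg/kg, and the Control group received saline. No group received crocin alone, so its effect without triptolide could not be compared. Each group held 4 libraries, and the library totals ran between 15509226 and 18430566 counts. In whole liver, fewer cells of a type and less RNA per cell cannot be told apart.

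Most Zfp proteins carry tandem C2H2 fingers, each a short loop held by a zinc ion between a pair of cysteines and a pair of histidines, which reads a few bases of DNA. Many also carry a KRAB box, which recruits the corepressor Trim28 and, through it, the H3K9 methyltransferase Setdb1 and HP1 proteins, and this silences retroviral and other repeats and keeps imprinted loci methylated. KRAB genes arose by tandem duplication and lie in clusters of near relatives. Others, such as those with a SCAN domain, act at gene promoters, and a few act on RNA or in ubiquitin transfer.

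Features of the encoded proteins were counted by motif in the GENCODE coding sequences on the mm10 assembly. A KRAB box was found in 53 members and none in 78, and a SCAN domain in 5 (Zfp444, Zfp263, Zfp397, Zfp24 and Zfp213). The number of C2H2 fingers had a median of 9 and a maximum of 36, in Zfp142. No C2H2 finger was found in 4 members, namely Zfp36, whose fingers are of the CCCH kind, Zfp750, Zfp330 and Zfp703. Of 1236 fingers in all, 366 were joined to the next by the canonical linker threonine, glycine, glutamate, lysine, proline, and 77 members held at least 1 such linker. The members spread over 19 chromosomes, with 24 on chromosome 7, 14 on chromosome 8 and 13 on chromosome 17.

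The coding sequences differed widely in base composition. The share of G or C at the third codon position, where most changes leave the amino acid as it is, ran between 22.0% and 84.5% with a median of 51.9%. Coding stretches of 5 genes are printed as examples of this range, by which fold changes are laid out below. Each runs from the first cysteine of a finger to the base before the next finger, 84 bases in all, with the 15 bases of the linker in capitals, read from the GENCODE transcript on mm10.
Zfp771: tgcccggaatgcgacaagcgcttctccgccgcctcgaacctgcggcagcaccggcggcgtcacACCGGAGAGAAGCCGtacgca
Zfp787: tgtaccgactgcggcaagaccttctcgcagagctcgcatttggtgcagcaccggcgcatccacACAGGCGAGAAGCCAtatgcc
Zfp612: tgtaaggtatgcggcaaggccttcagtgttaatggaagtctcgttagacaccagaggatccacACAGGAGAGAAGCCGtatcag
Zfp113: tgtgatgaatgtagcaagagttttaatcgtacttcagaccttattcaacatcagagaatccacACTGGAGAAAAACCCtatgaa
Zfp946: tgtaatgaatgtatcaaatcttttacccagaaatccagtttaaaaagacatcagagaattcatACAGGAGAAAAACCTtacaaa
These lie in a coding exon at chr7:127254024-127254107 on the plus strand (finger 3 of 8), chr7:6132882-6132965 on the minus strand (finger 2 of 7), chr8:110089009-110089092 on the plus strand (finger 3 of 16), chr5:138145297-138145380 on the minus strand (finger 1 of 8) and chr17:22454996-22455079 on the plus strand (finger 2 of 11). The linker spells the same 5 amino acids in all of them. The GC content of the stretch was 69.0% in Zfp771, 60.7% in Zfp787, 50% in Zfp612, 36.9% in Zfp113 and 29.8% in Zfp946. Over the whole coding sequence, GC at the third codon position was 84.5% in Zfp771 and 31.0% in Zfp946.

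Upstream sequence was compared in the 250 bases before the transcription start, taken from RefSeq (GRCm38.p6), where 105 members matched. The GC box GGGCGG, searched on both strands, occurred in 61 of them (58.1%) and in 32.9% of 27025 promoters of all genes. It occurred in 24 of 48 matched members with a KRAB box (50%) and in 37 of 57 without (64.9%). CCAAT was found in 49.5% of members and 34.5% of all promoters, CCGGAA in 27.6% and 12.2%, and TATAAA in 4.76% and 13%. The members' promoters had a median GC content of 56% and 13 CpG, against 52% and 6 over all promoters. Abundance chose the members but not the promoters of all genes. The part of abundance and base composition in the motif shares was not tested. Promoters are shown for a pair of genes that were higher in MTP+CR than in MTP livers, Zfp358 and Zfp637, and for 1 that was lower, Zfp113, with each GGGCGG of either strand in capitals.
Zfp358: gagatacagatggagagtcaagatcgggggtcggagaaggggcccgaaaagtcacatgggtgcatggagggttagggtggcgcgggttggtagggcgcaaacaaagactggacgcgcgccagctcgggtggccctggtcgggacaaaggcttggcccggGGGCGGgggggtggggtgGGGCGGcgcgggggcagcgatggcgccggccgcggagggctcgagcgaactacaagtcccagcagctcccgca
Zfp637: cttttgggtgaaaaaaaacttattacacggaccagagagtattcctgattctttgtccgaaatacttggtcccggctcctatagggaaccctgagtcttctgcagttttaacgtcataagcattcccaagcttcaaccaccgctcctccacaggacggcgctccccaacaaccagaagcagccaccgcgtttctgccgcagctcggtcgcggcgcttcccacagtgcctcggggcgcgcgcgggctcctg
Zfp113: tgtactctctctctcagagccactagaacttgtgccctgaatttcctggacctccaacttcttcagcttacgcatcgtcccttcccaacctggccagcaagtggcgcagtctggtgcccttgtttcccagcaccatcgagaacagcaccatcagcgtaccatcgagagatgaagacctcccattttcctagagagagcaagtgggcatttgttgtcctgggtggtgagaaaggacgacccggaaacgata
They lie at chr8:3492888-3493137 and chr6:117840931-117841180 on the plus strand and at chr5:138155745-138155994 on the minus strand. The box was present at 2 places in Zfp358, 0 in Zfp637 and 0 in Zfp113. A match describes letters only and says nothing of binding.

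The members were expressed at low levels per gene length. The mean FPKM over the 12 libraries had a median of 1.48 among the members, against 2.26 among all 15197 genes tested. The members' median gene length was 8868 bases, against 5674 over all genes tested. In CPM, the count scaled by library total and TMM factor and used below unless FPKM is named, 50 members averaged under 10 and 8 averaged over 50. Mean CPM had a median of 11.2 among the members, near the 12.7 among all genes tested. Zfp706, a small protein that in mouse embryonic stem cells aids exit from self-renewal, had the highest FPKM at 17.5. It was followed by Zfp91, a ubiquitin ligase of the noncanonical NF-kB pathway, at 11.1 FPKM. Zfp598, which in human cells marks collided ribosomes with ubiquitin, had 10.6 FPKM, and Zfp36 (tristetraprolin), which drives decay of mRNAs with AU-rich elements, had 9.91 FPKM. Zfp970, with a KRAB box, came next at 8.57 FPKM. Zfp106, an RNA-binding protein needed for motor neuron upkeep, had 7.95 FPKM, and Zfp771 had 7.41 FPKM. Zfp207, a spindle assembly factor, had 6.65 FPKM, and Zfp445, a KRAB protein that guards imprints, had 5.96 FPKM. Zfp871, among the highest members in CPM at 68.5, had 4.70 FPKM.

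Markers of some of the liver's cell types moved with the groups. The summed CPM of 20 hepatocyte markers, none of them at 0, was 115164 to 169568 in MTP+CR, 49599 to 89374 in MTP and 145544 to 226999 in Control livers. For 18 endothelial markers, none at 0, it was 260 to 399 in MTP+CR, 654 to 834 in MTP and 762 to 855 in Control livers. Of the 18, 12 were called lower in MTP+CR than in MTP livers (66.7%, beside 6.51% of all genes). For 18 neutrophil and monocyte markers it was 22.1 to 90.9 in MTP+CR, 66.9 to 965 in MTP and 26.0 to 249 in Control livers. These ranges overlapped between every pair of groups. Of 17 tested, 8 were called higher in MTP than in Control livers (47.1%, beside 2.61% of all genes). In MTP+CR against MTP livers 9 were called lower (52.9%, beside 6.51% of all genes). Sums of the Kupffer cell and macrophage, lymphocyte, stellate cell, cholangiocyte and erythroid lists also overlapped between every pair of groups. The lymphocyte and cholangiocyte lists had 0 calls in all comparisons. Of 6 erythroid markers tested, 1 was called lower in MTP against Control livers and 1 in MTP+CR against Control livers. That was 16.7% each, beside 2.78% and 1% of all genes. Of 12 stellate cell markers, 2 were called lower in MTP+CR than in MTP livers, where 0 of 12 Kupffer cell and macrophage markers were called. TMM factors were 1.07 to 1.52 in MTP and 0.82 to 0.99 in the other libraries. Libraries MTP 4 and MTP+CR 4 stood apart for these genes: the members' median log2 ratio to each gene's Control mean was -0.55 in MTP+CR 4, against -0.15 to -0.03 in the other MTP+CR libraries, and -0.23 in MTP 4, against -0.07 to 0.08 in the other MTP libraries. The part of cell makeup and of these libraries in the results below was not tested, except where values without the libraries are given.

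Triptolide livers were first compared with saline livers. In MTP livers 2 of 131 members were higher and 2 were lower than in Control livers, using edgeR's quasi-likelihood test with Benjamini-Hochberg adjustment over 15197 genes and a fold change above 1.5. That is 3.05% of the members, beside 5.4% of all genes tested (2.61% higher and 2.78% lower). The members' median log2 fold change was -0.09, and that of all genes 0.02. With total counts alone as the scaling, under which the median of all genes was 0.50, 12 members were called higher and 1 lower. That was 9.92% of members beside 19.2% of all genes (2597 higher and 323 lower). By limma on log2(FPKM + 1), also scaled to total counts, 7 were called higher and 0 lower. That was 5.34% of members beside 13.8% of all genes (1804 higher and 299 lower).

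The 12 genes called in this or the next comparison are plotted library by library.

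**Figure D1:**
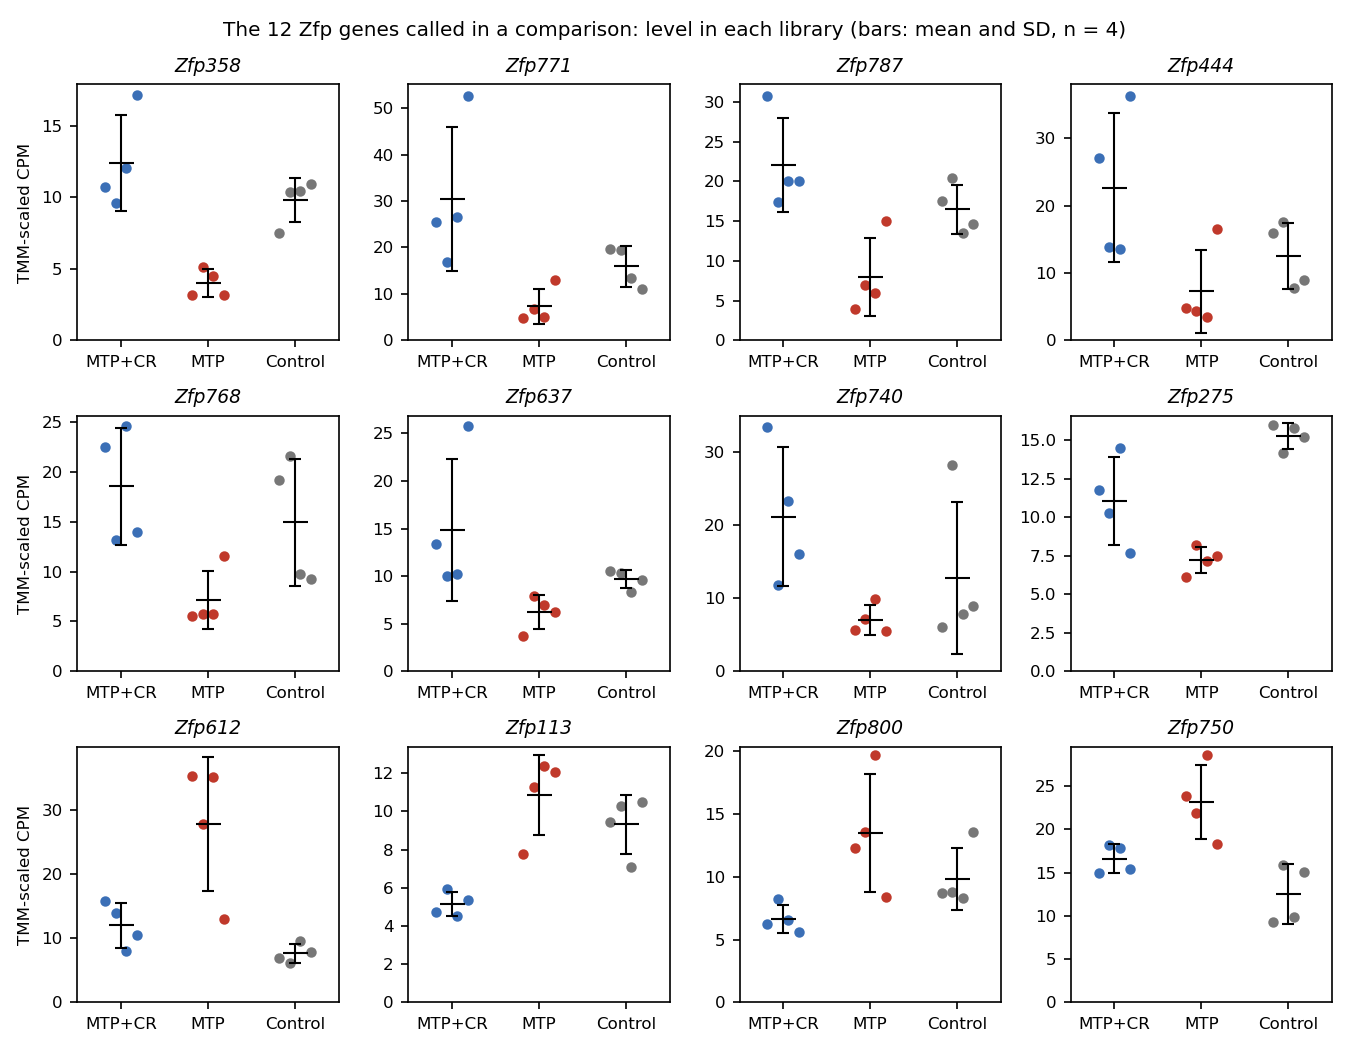
Each panel plots TMM-scaled CPM (vertical axis, linear, from 0) of 1 gene in the MTP+CR, MTP and Control libraries. Points are libraries and bars are the mean and SD (n = 4). Zfp358 is low in all 4 MTP livers (3.15 to 5.12 CPM), and Zfp612 is high in 3 of them (27.8 to 35.4 CPM).

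Zfp612, a KRAB protein with 16 fingers (chr8:110079746-110092741, plus strand), rose most. Its CPM was 35.4, 27.8, 35.1 and 13.1 in MTP livers, against 6.95, 6.21, 9.64 and 7.83 in Control livers. All 4 MTP livers were above the Control range, with MTP 4 the lowest of them. Its log2 fold change was 1.86 (SE 0.32, edgeR adjusted p = 0.00865). The gene overlaps the coding gene Gm17720 on the other strand, and their reads cannot be told apart without stranded counting, which is not stated.

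Zfp750, known in human skin as a factor of epidermal differentiation, was the other gene higher in MTP livers. Its CPM was 23.8, 21.9, 28.6 and 18.3 in MTP livers, against 9.23, 15.9, 9.85 and 15 in Control livers, with no overlap. Its log2 fold change was 0.89 (SE 0.23, edgeR adjusted p = 0.041). Its call was lost in 8 of 12 fits that left out 1 library, and it overlaps Tbcd on the other strand.

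Zfp358 (chr8:3493138-3497208, plus strand), with 9 fingers and no KRAB box, fell. Its CPM was 3.15, 5.12, 4.49 and 3.17 in MTP livers, against 7.52, 10.3, 10.4 and 11 in Control livers. All MTP livers lay below all Control livers, at a mean of 3.98 ± 0.982 CPM in MTP and 9.81 ± 1.55 CPM in Control (SD, n = 4 each). The log2 fold change was -1.30 (SE 0.26, edgeR adjusted p = 0.0152).

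Zfp275 on chromosome X also fell, at 6.1, 8.18, 7.19 and 7.47 CPM in MTP livers, against 16, 14.1, 15.8 and 15.2 CPM in Control livers. Both groups were tight and did not overlap. Its log2 fold change was -1.08 (SE 0.22, edgeR adjusted p = 0.0153), and the call was lost without Control 3, MTP 1 or MTP 3. Of the 4 calls, those of Zfp612 and Zfp358 stood in every fit that left out 1 library.

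Without both MTP 4 and MTP+CR 4, 7 members were called higher and 11 lower in MTP than in Control livers, the 4 above among them, 13.7% of members beside 16.9% of all genes. Without MTP 4 alone the counts were 7 and 9, 12.2% of members beside 12.9% of all genes. Without Control 3, MTP 1 or MTP 3 they were 1 and 1, 1.53% of members beside 1.58% to 2.16% of all genes. Members whose 4 MTP livers all lay to one side of the 4 Control livers numbered 6 higher and 11 lower, 13% of members beside 14.7% of all genes (6.96% higher and 7.71% lower). They included Zfp593, whose yeast relative acts in ribosome export, at 10.2, 6.79, 11.1 and 7.26 CPM in MTP and 5.19, 4.8, 4.11 and 5.06 CPM in Control livers (log2 fold change 0.88, SE 0.28, adjusted p = 0.0771 by edgeR). They also included Zfp207 at 66.4, 68.4, 87 and 52.3 CPM in MTP and 38.1, 51.1, 47.1 and 49 CPM in Control livers (edgeR adjusted p = 0.113). Zfp263, a SCAN protein whose human relative represses heparan sulfate genes, had 20.1, 12, 25 and 6.07 CPM in MTP livers, against 5.3, 8.21, 5.25 and 4.78 CPM in Control livers. Its groups overlapped through MTP 4 alone, and the edgeR adjusted p was 0.0725.

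Adding crocin to triptolide was examined next. In MTP+CR livers 7 members were higher and 3 lower than in MTP livers by the same edgeR test, 7.63% of the members beside 12.4% of all genes tested (5.94% higher and 6.51% lower). At an unadjusted p under 0.05 there were 15 members higher and 23 lower. That was 29% of members beside 33.9% of all genes (2534 higher and 2623 lower). The 7 called higher were Zfp358, Zfp771, Zfp787, Zfp637, Zfp768, Zfp740 and Zfp444, none of which has a KRAB box. The 3 called lower were Zfp113 and Zfp612, which have one, and Zfp800. The members' median log2 fold change was -0.11, beside -0.03 over all genes. With total counts alone, under which the median of all genes was -0.54, 3 members were called higher and 43 lower. That was 35.1% of members beside 29.8% of all genes (414 higher and 4115 lower). By limma on log2(FPKM + 1) 3 were higher and 25 lower, 21.4% of members beside 22.2% of all genes (437 higher and 2939 lower). With the dependence on length and GC taken out of every library, 9 were called higher, 7 of them the genes above, and 0 lower. That was 6.87% of members beside 10.9% of all genes.

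Zfp771 (chr7:127244274-127254803, plus strand) has 8 fingers and the highest GC at the third codon position of all members. Its CPM was 25.5, 16.9, 26.6 and 52.6 in MTP+CR livers and 4.92, 6.73, 5.01 and 12.9 in MTP livers, with 19.8, 19.4, 13.5 and 11 in Control livers. Every MTP+CR liver lay above every MTP liver, and MTP+CR 4 was the highest of all 12. The log2 fold change was 2.04 (SE 0.40, edgeR adjusted p = 0.0137), and it was 1.65 to 2.47 when 1 library was left out, past the threshold each time.

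Zfp358, the gene that fell with triptolide alone, was at 10.7, 9.58, 12 and 17.2 CPM in MTP+CR livers, against 3.15, 5.12, 4.49 and 3.17 CPM in MTP livers. The MTP+CR libraries overlapped the Control range of 7.52 to 11 CPM. The log2 fold change was 1.63 (SE 0.26, edgeR adjusted p = 0.00714), again called in every fit that left out 1 library. This comparison and the one before share the MTP libraries, so their opposite signs are not independent.

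Zfp787 and Zfp444 are neighbouring members on chromosome 7, on opposite strands, at chr7:6131491-6155997, minus strand, and chr7:6172226-6193811, plus strand. Zfp787 had 30.8, 17.4, 20.0 and 20.0 CPM in MTP+CR livers, against 3.89, 7.01, 5.99 and 15.1 CPM in MTP livers (log2 fold change 1.47, SE 0.36, adjusted p = 0.0282 by edgeR). Zfp444, the mouse form of human endothelial zinc finger protein 2, had 27.1, 13.8, 13.6 and 36.3 CPM in MTP+CR livers, against 4.79, 4.39, 3.55 and 16.5 CPM in MTP livers (log2 fold change 1.64, SE 0.51, adjusted p = 0.0496 by edgeR). In both genes MTP 4 was the highest MTP liver. It lay within the MTP+CR range for Zfp444, whose call was lost in 10 of 12 fits that left out 1 library. The next member along, Zfp954, with a KRAB box, had log2 fold changes of 0.27 (adjusted p = 0.474 by edgeR) and -0.25 in MTP against Control.

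Zfp768, whose human relative is tied to cell proliferation, lies near Zfp771 on chromosome 7, at chr7:127342795-127345589, minus strand. It had 22.5, 13.2, 24.6 and 13.9 CPM in MTP+CR livers, against 5.53, 5.73, 5.78 and 11.6 CPM in MTP livers, with no overlap (log2 fold change 1.38, SE 0.36, adjusted p = 0.032 by edgeR). The other members of that stretch, Zfp629 and Zfp646, had log2 fold changes of 0.63 and -0.14, neither past the test. The 4 genes of the stretch carry no KRAB box, and their median log2 fold change was 1.00 in MTP+CR against MTP and -0.95 in MTP against Control livers.

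Zfp637 had 13.4, 10.0, 10.2 and 25.8 CPM in MTP+CR livers, against 3.69, 7.95, 7.02 and 6.29 CPM in MTP livers (log2 fold change 1.25, SE 0.33, adjusted p = 0.032 by edgeR). Its MTP+CR 4 value was the highest of the 12, and MTP+CR 2 and MTP+CR 3 lay within 1 SD of the Control mean of 9.7 ± 0.987 CPM (SD, n = 4). Zfp740, which overlaps Csad on the other strand, had 33.5, 11.9, 23.4 and 16.1 CPM in MTP+CR livers, against 5.69, 7.12, 9.93 and 5.54 CPM in MTP livers (log2 fold change 1.58, SE 0.47, adjusted p = 0.0443 by edgeR). Its Control livers were scattered, at 6.04, 28.2, 7.8 and 9.01 CPM, and its call was lost in 9 of 12 fits that left out 1 library. The calls of Zfp787, Zfp768 and Zfp637 were lost in 5, 5 and 4 such fits.

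Zfp113 (chr5:138139702-138155744, minus strand), a KRAB protein with 8 fingers, was lower in MTP+CR livers, at 4.75, 5.93, 4.52 and 5.38 CPM, against 7.78, 11.3, 12.4 and 12 CPM in MTP livers. The MTP+CR livers lay below every MTP liver and also below every Control liver (9.46, 10.3, 7.09 and 10.5 CPM). The log2 fold change against MTP was -1.08 (SE 0.23, edgeR adjusted p = 0.0189), and the call was lost without MTP 3 or MTP+CR 1. Against Control the log2 fold change was -0.86 and the adjusted p was 0.0767.

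Zfp612 was at 15.8, 13.9, 7.94 and 10.6 CPM in MTP+CR livers, against 35.4, 27.8, 35.1 and 13.1 CPM in MTP livers (log2 fold change -1.21, SE 0.31, adjusted p = 0.032 by edgeR). The groups overlapped through MTP 4, and the call was lost in 6 of 12 fits that left out 1 library. Zfp800, with 6 fingers and a third-position GC of 32.9%, had 6.24, 8.21, 6.52 and 5.6 CPM in MTP+CR livers, against 12.3, 13.5, 19.6 and 8.39 CPM in MTP livers, with no overlap (log2 fold change -1.02, SE 0.28, adjusted p = 0.0357 by edgeR). Its call was lost in 6 such fits.

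Without both MTP 4 and MTP+CR 4, 13 members were called higher and 11 lower in MTP+CR than in MTP livers, 9 of the 10 above among them, 18.3% of members beside 21.8% of all genes. Without MTP 4 alone the counts were 12 and 17, 22.1% of members beside 25.8% of all genes. Without MTP 3 or MTP+CR 1 they were 2 and 0, 1.53% of members beside 1.7% and 2.6% of all genes. Groups that did not overlap were found for 7 members higher and 6 lower, 9.92% of members beside 14.9% of all genes (6.92% higher and 7.99% lower). The most abundant of them was Zfp706, at 109, 108, 106 and 118 CPM in MTP+CR and 74.2, 103, 71.6 and 87.3 CPM in MTP livers, which did not pass the test (adjusted p = 0.176 by edgeR).

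Livers given both compounds were then set against saline livers. None of the 131 members was called in MTP+CR against Control livers by edgeR, beside 1.33% of all genes tested. At an unadjusted p under 0.05 there were 3 members higher and 21 lower. That was 18.3% of members beside 22% of all genes (1689 higher and 1647 lower). DESeq2 called 3 members lower, Zfp113, Zfp65 and Zfp236, 2.29% of members beside 7.62% of all genes. The members' median log2 fold change was -0.24, beside -0.02 over all genes, and 83 of 131 were negative. It was -0.12 without both MTP 4 and MTP+CR 4 and -0.04 with the length and GC trend removed.

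Zfp65, a KRAB protein of a chromosome 13 cluster, had 5.32, 5.08, 4.78 and 2.94 CPM in MTP+CR livers, against 7.07, 7.67, 7.87 and 10.9 CPM in Control livers (log2 fold change -0.88, SE 0.27, adjusted p = 0.104 by edgeR). The groups did not overlap, and MTP livers, at 6.92, 7.06, 5.39 and 4.3 CPM, lay below Control and overlapped MTP+CR. Zfp236, with 30 fingers, had 14.7, 15.6, 16.2 and 10.3 CPM in MTP+CR livers, against 23.8, 20.3, 27.4 and 20.7 CPM in Control livers (log2 fold change -0.70, SE 0.22, adjusted p = 0.109 by edgeR). In the other direction, Zfp593 had 8.8, 6.12, 6.0 and 12 CPM in MTP+CR livers, all above the Control livers (log2 fold change 0.78, SE 0.28, adjusted p = 0.137 by edgeR). Groups did not overlap for 2 members higher and 14 lower, 12.2% of members beside 15.5% of all genes (7.37% higher and 8.15% lower).

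The fold changes were next laid out by base composition and by the KRAB box, features that the choice of members did not use. The members were divided into terciles of third-position GC, with 44 genes at 22.0% to 44.0%, 43 at 44.6% to 59.4% and 44 at 60.2% to 84.5%. KRAB genes made up 30 of the lowest, 15 of the middle and 8 of the highest tercile. The lowest tercile had 0 called higher and 1 lower in MTP+CR against MTP livers, at a median of -0.31. The middle had 2 higher and 2 lower at a median of -0.16, and the highest had 5 higher and 0 lower at a median of 0.19. In the lowest range of third-position GC 0% of members were called higher and 2.27% lower, beside 2.25% and 7.37% of 1465 other coding genes. In the middle range 4.65% of members were called higher and 4.65% lower, beside 4.08% and 8.64% of 4584 other coding genes. In the highest range 11.4% of members were called higher and 0% lower, beside 8.31% and 5.77% of 6788 other coding genes. Against Control livers the MTP+CR medians of the lowest and highest terciles were -0.36 and 0.08. Of the 44 genes of the lowest tercile 38 were negative. In MTP against Control livers these medians were -0.07 and -0.15.

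**Figure D2:**
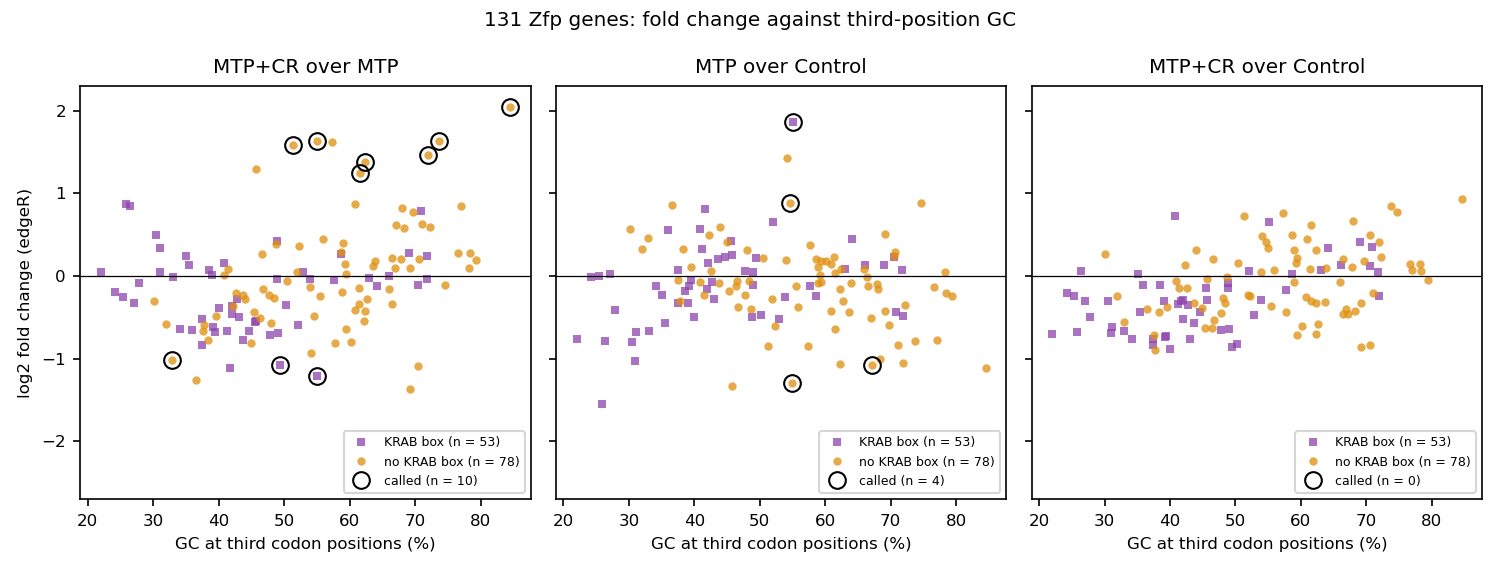
The log2 fold change from edgeR (vertical axis) of each of 131 members is plotted against GC at the third codon position in percent (horizontal axis), in 3 comparisons; squares are genes with a KRAB box (n = 53), filled circles genes without one (n = 78), and open rings mark called genes. The 7 genes called higher in MTP+CR than in MTP livers lie at 51.3% or more.

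The pattern was not particular to zinc finger genes. All other coding genes tested, taken in the same ranges of third-position GC, had medians of -0.33, -0.17 and 0.12 in MTP+CR against MTP livers. Across genes, Spearman's rho between third-position GC and the log2 fold change was 0.37 over 131 members and 0.21 over 12968 coding genes in that comparison, and 0.45 and 0.23 in MTP+CR against Control. With the length and GC trend of each library removed, the members' rho was 0.14 and 0.16. The members share libraries and are not independent, so these values are descriptions. Members with more ATTTA pentamers in the 3′ UTR had lower fold changes, with rho of -0.45 in MTP+CR against MTP and -0.52 in MTP+CR against Control livers, and all coding genes had -0.33 and -0.37. With the length and GC trend removed the members' rho was -0.22 and -0.20, and that of all coding genes was -0.11 and -0.12. The length of the 3′ UTR alone gave the members -0.38 and -0.47, and its part in the relation with ATTTA was not tested.

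The same contrast was read in each library as the median of the highest tercile minus that of the lowest, both relative to the Control mean. It was 0.61, 0.15, 0.38 and 0.52 in MTP+CR livers, -0.09, -0.46, -0.04 and 0.51 in MTP livers and 0.17, 0.33, -0.23 and -0.38 in Control livers. All MTP+CR livers were positive, but MTP 4, Control 1 and Control 2 lay within their range. Over all other coding genes it was 0.40, 0.05, 0.20 and 0.70 in MTP+CR livers, -0.28, -0.34, -0.11 and 0.38 in MTP livers and 0.15, 0.21, -0.14 and -0.23 in Control livers. The sign was the same in members and in other genes in each of the 12 libraries.

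**Figure D3:**
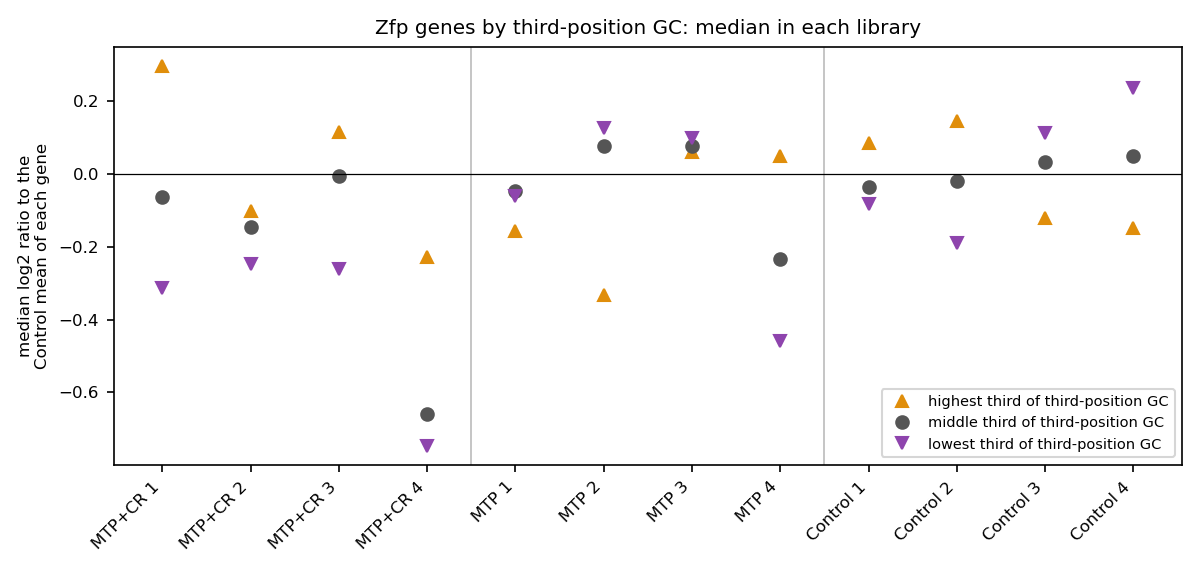
For each of the 12 libraries (horizontal axis, MTP+CR, MTP, then Control) the median log2 ratio to the Control mean (vertical axis) is plotted for members in the highest, middle and lowest tercile of third-position GC (up triangles, circles, down triangles). The lowest tercile is under 0 in all MTP+CR livers (-0.75 to -0.25) and in MTP 4 (-0.46), and also, nearer to 0, in MTP 1 (-0.06), Control 1 (-0.08) and Control 2 (-0.19).

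Members with a KRAB box had a median log2 fold change of -0.30 in MTP+CR against Control livers, with 40 of 53 negative, and members without one had -0.06, with 43 of 78 negative. Within the lowest tercile of third-position GC the medians were -0.47 for 30 KRAB genes and -0.28 for 14 others. Within the middle tercile they were -0.29 for 15 KRAB genes and -0.02 for 28 others. Within the highest they were 0.13 for 8 KRAB genes and 0.07 for 36 others. Genes with 13 or more fingers had a median of -0.45, with 25 of 30 negative. In MTP against Control livers rho between third-position GC and fold change was 0.39 over the 53 KRAB genes and -0.34 over the 78 others, and it was 0.36 and -0.30 with the length and GC trend removed. In that comparison the lowest tercile had a median of -0.17 for its KRAB genes, with 21 of 30 negative, and of 0.22 for its other genes, with 5 of 14 negative. The difference itself was not tested.

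Position was examined because KRAB genes lie in clusters. Grouping members less than 1000000 bases apart gave 9 clusters of 3 or more, holding 39 members. The largest, on chromosome 17 between 21008903 and 23564238, held 8 KRAB genes, of which 7 had a third-position GC between 27.8% and 37.4%, the exception being the SCAN gene Zfp213 (70.5%). Their median log2 fold change was -0.54 in MTP against Control and -0.65 in MTP+CR against Control livers, each with 7 of 8 negative, and -0.05 in MTP+CR against MTP livers. With the length and GC trend removed these medians were -0.42, -0.33 and 0.14. None was called. With total counts alone, under which the median of all genes was 0.50 in MTP against Control and -0.54 in MTP+CR against MTP livers, the cluster's medians were -0.045 (4 of 8 negative) and -0.55 (8 of 8 negative), and the median in MTP+CR against Control livers was -0.67.

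Zfp946 had 9.08, 12.2, 12.1 and 5.24 CPM in MTP+CR livers, 5.57, 11.1, 8.04 and 6.07 in MTP livers and 12.2, 15.5, 15.8 and 19.3 in Control livers. The MTP livers lay below all Control livers (log2 fold change -1.03, SE 0.30, adjusted p = 0.0637 by edgeR). Zfp944 did not overlap either, at 4.3, 3.95, 7.1 and 3.98 CPM in MTP livers, against 8.09, 7.67, 10.8 and 7.21 CPM in Control livers (adjusted p = 0.0982 by edgeR). Zfp943 and Zfp945 did not overlap between MTP+CR and Control livers, at 10.0, 8.93, 8.65 and 8.54 CPM in MTP+CR against 12.7, 10.7, 14 and 13.6 CPM in Control livers for Zfp943. For Zfp945 the values were 6.53, 7.62, 6.65 and 7.04 CPM in MTP+CR and 8.6, 10.1, 11 and 14.6 CPM in Control livers. Zfp213 had 6.11 ± 1.57, 6.58 ± 1.84 and 5.61 ± 1.28 CPM in MTP+CR, MTP and Control livers (SD, n = 4 each). Clustered KRAB genes are close relatives, and how the counting shared reads among them is not stated, so single values in the cluster are uncertain.

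**Figure D4:**
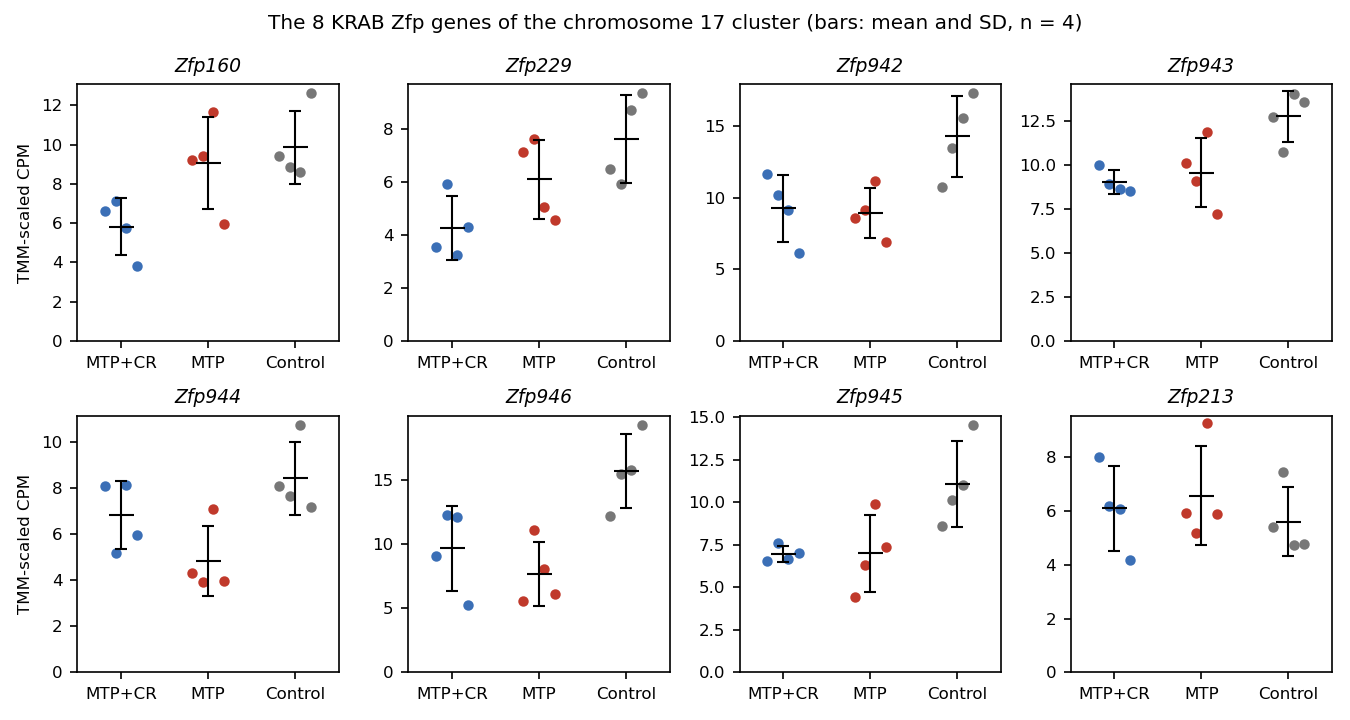
TMM-scaled CPM (vertical axis, linear, from 0) of the 8 KRAB genes of the chromosome 17 cluster is plotted in the MTP+CR, MTP and Control libraries (points; bars are the mean and SD, n = 4). On this scale both triptolide groups average below Control in 7 genes, with Zfp213 the exception, while with total counts alone MTP against Control is negative in 4 of 8.

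In each library the cluster's median log2 ratio to the Control mean was -0.43, -0.44, -0.56 and -0.66 in MTP+CR livers and -0.50, -0.47, -0.17 and -0.72 in MTP livers, against -0.12, -0.10, 0.08 and 0.30 in Control livers. Both triptolide groups lay below all Control livers. A cluster of 4 KRAB genes on chromosome 9 (Zfp317, Zfp26, Zfp426 and Zfp266) had a median of 0.11 in MTP against Control, -0.62 in MTP+CR against MTP and -0.48 in MTP+CR against Control livers. In the same order, 3 KRAB genes on chromosome 13 (Zfp748, Zfp738 and Zfp65) had -0.12, -0.62 and -0.77. The 6 genes on chromosome 6 (Zfp398, Zfp282, Zfp212, Zfp777, Zfp746 and Zfp467) had 0.10, 0.02 and 0.15.

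Genes were also grouped by known role. Of all genes tested, 5.4% were called in MTP against Control and 12.4% in MTP+CR against MTP livers. In MTP+CR against Control livers it was 1.33%. A list of 3 or 4 members is too short for a count of 0 to be set against these shares. Of 10 listed KRAB proteins that silence retroviruses or guard imprints, 4 were members, and none was called in any comparison. Zfp445 had 63, 57.3, 71.6 and 30.0 CPM in MTP+CR, 117, 99.8, 77.3 and 58.3 in MTP and 72.4, 70.7, 93.2 and 63.9 in Control livers. Zfp809, which silences retroviruses at the primer binding site in embryonic cells, had 11, 11.5, 10.9 and 4.24 CPM in MTP+CR, 21.2, 21.6, 10.8 and 7.04 in MTP and 13.4, 10.1, 21.4 and 13.9 in Control livers. Both genes had their lowest value in MTP+CR 4. Zfp568, which represses a placental Igf2 transcript, was scattered in MTP+CR livers, at 1.85, 3.0, 19.8 and 7.47 CPM (adjusted p = 0.959 against MTP by edgeR). Zfp961 was scattered there too, at 5.18, 8.67, 1.42 and 0.215 CPM (adjusted p = 0.296 against MTP by edgeR).

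Of 24 listed factors of promoters and chromatin, 19 were members, and Zfp787 and Zfp740 were the 2 called, in MTP+CR against MTP livers, 10.5% of the 19 beside 12.4% of all genes. Zfp148, which binds GC-rich promoters, had 14.5, 41.4, 37.9 and 25.3 CPM in MTP+CR, 46.7, 57.6, 36 and 29.6 in MTP and 41.5, 42.8, 51.3 and 49.3 in Control livers. All MTP+CR livers lay below all Control livers, and the adjusted p was 0.239 by edgeR. Its relative Zfp281 was at 2.7, 29.5, 31.1 and 20.0 CPM in MTP livers, with MTP 1 far below the rest, against 29.9, 34, 36.3 and 26.4 CPM in Control livers. Zfp592 averaged 32.9 ± 7.64, 37.5 ± 5.41 and 34.7 ± 1.9 CPM in MTP+CR, MTP and Control livers (SD, n = 4 each), with overlap throughout, and Zfp652 averaged 31.6 ± 13.4, 38.3 ± 8.69 and 47.2 ± 14.3 CPM.

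Of 14 listed proteins that bind RNA or act in translation, 13 were members and none was called in any comparison. Of all genes 5.4% were called in MTP against Control, 12.4% in MTP+CR against MTP and 1.33% in MTP+CR against Control livers. Zfp106 was at 75, 98.1, 107 and 52.1 CPM in MTP+CR livers, against 162, 116, 198 and 105 CPM in MTP livers (log2 fold change -0.81, SE 0.26, adjusted p = 0.0594 by edgeR). Zfp36 was at 47.2, 28.3, 54.9 and 70.7 CPM in MTP+CR, 31.7, 42.2, 31.1 and 79.9 in MTP and 40.3, 122, 43.2 and 44.9 in Control livers, and Control 2 was the highest of the 12. Zfp598 averaged 61.3 ± 16.1, 53.1 ± 11.4 and 56.8 ± 11.2 CPM (SD, n = 4 each). Of 9 factors of fat cells or lipid 3 were members, too few to set against these shares, and none was called. Among them Zfp467, which favours fat over bone cells in mouse marrow, had 11.6, 13.9, 9.75 and 8.47 CPM in MTP+CR and 4.26, 5.17, 6.76 and 9.46 CPM in MTP livers (log2 fold change 0.77, SE 0.30, adjusted p = 0.0947 by edgeR). Of 7 genes linked to p53 or the neurotrophin receptor p75, 3 were members, again too few for this, and none was called. Zfp110, a p75 binding protein, had 24.3 ± 1.75, 25 ± 2.13 and 27 ± 2.91 CPM in MTP+CR, MTP and Control livers (SD, n = 4 each).

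The partners through which KRAB proteins silence were read from the same fit. Of 23 listed genes of the KRAB corepressor pathway 22 were tested. None was called in MTP against Control livers, beside 5.4% of all genes. At an unadjusted p under 0.05, 2 were higher and 3 lower in that comparison, beside 22.8% of all genes in either direction. In MTP+CR against MTP livers 2 were called lower and 0 higher, 9.09% of the 22 beside 12.4% of all genes (6.51% lower). The count ran between 0 and 5 when 1 library was left out, and it fell below 2 in 9 of 12 such fits, among them each fit without a Control library. Trim28 itself averaged 66.5 ± 17.5, 61.5 ± 8.59 and 61.2 ± 1.63 CPM in MTP+CR, MTP and Control livers (SD, n = 4 each), with adjusted p of 0.732 in MTP+CR against MTP and 0.991 in MTP against Control by edgeR.

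Atf7ip, which stabilises Setdb1, was at 17.4, 30.8, 22.9 and 17.9 CPM in MTP+CR livers, against 41, 36.5, 35.5 and 30.8 CPM in MTP livers (log2 fold change -0.69, SE 0.21, adjusted p = 0.0487 by edgeR). The other MTP+CR livers lay below every MTP liver, and MTP+CR 2 was level with MTP 4. Morc2a, a partner of the HUSH silencing complex, was at 16.1, 17.5, 17.9 and 11.8 CPM in MTP+CR livers, against 34.8, 20.5, 38 and 19.6 CPM in MTP livers (log2 fold change -0.83, SE 0.25, adjusted p = 0.0441 by edgeR). Its MTP livers fell into a higher and a lower pair. Each of these calls was lost in 10 of 12 fits that left out 1 library. With the length and GC trend removed neither was called. None of the 22 was called in MTP+CR against Control livers, beside 1.33% of all genes. At an unadjusted p under 0.05, 0 were higher and 4 lower, beside 22% of all genes in either direction.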

How the data were processed

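Messenger RNA of 12 mouse livers, 4 in each of 3 groups, was sequenced from total RNA with a SMARTER kit. The authors deposited raw fragment counts per gene and FPKM, with 1 column per library. By the study's methods reads were mapped with Hisat2 and counted with Stringtie, while the submitters' processing notes name Bowtie 0.12.2 and mm10. Strand use and the sharing of reads between similar genes are not given in the sources used here. FPKM values as deposited are counts per gene length and library total, so they are scaled to total counts.

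Counts were tested in R 4.3.3 with edgeR 4.0.16 (filterByExpr with a minimum count of 10 and a minimum total of 15, TMM factors, quasi-likelihood F-test, 1 fit over 3 groups), with Benjamini-Hochberg adjustment over the 15197 genes kept. A gene counted as called when its adjusted p was under 0.05 and its fold change over 1.5. All 131 members passed the filter. limma 3.58.1 and DESeq2 1.42.0 served as alternatives. The labels name each library as a separate sample of its group, and p-values measure the spread between these samples. No library pair held identical values. Deviations of same-numbered libraries of different groups had correlations of -0.187 to 0.203, and those of different-numbered libraries -0.201 to 0.166. The highest, 0.203, was between MTP 4 and MTP+CR 4. The labels do not state pairs, and no pairing was used.

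Finger, KRAB and SCAN motifs, GC at the third codon position and overlapping genes were read from GENCODE vM21 on mm10, and promoters from RefSeq. Library ratios used log2(CPM + 0.5). Genes named were the most abundant members, those called or with the smallest adjusted p, those called in both main comparisons, those beside the count limit, and the most abundant of each role list, with cluster members, DESeq2 calls and those that did not overlap between groups added after their values were seen. The members and lists were chosen with earlier results of these data known.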

Additional observations from a re-analysis of the deposited data

Results flagged for a closer look

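In 43 named members, tested in 3 groups of 4 libraries each (129 tests), a single library lay far from the other 3 by Dixon's criterion in 8 cases. Chance flags about 1 in 20 groups, and 8 of 129 is near that rate. Library MTP 4 was the highest MTP liver for Zfp768, at 11.6 CPM against 5.53 to 5.78 CPM in the others, and for Zfp444, at 16.5 CPM against 3.55 to 4.79 CPM. Library Control 2 was the highest Control liver for Zfp36, at 122 CPM against 40.3 to 44.9 CPM in the others, for Zfp740, at 28.2 CPM against 6.04 to 9.01 CPM, and for Zfp263, at 8.21 CPM against 4.78 to 5.30 CPM. Zfp800 was at 13.5 CPM in Control 4, against 8.29 to 8.74 CPM in the other Control livers. Zfp652 was at 68.6 CPM in Control 1, against 38.8 to 41.7 CPM. Zfp809 was at 4.24 CPM in MTP+CR 4, against 10.9 to 11.5 CPM in the other MTP+CR livers.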

How the results depend on the processing

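No call of edgeR on a named member changed sign under any alternative, and the call counts moved with the scaling and the test. Over all 43 named members, sign changes of fold changes that were not called reached 14 in MTP against Control livers (limma on FPKM, 13 with total counts), 12 in MTP+CR against MTP livers and 9 in MTP+CR against Control livers (both with the length and GC trend removed), and at most 3 when 1 library was left out. Shares of members beside all genes are given in brackets. In MTP against Control livers edgeR called 4 members (3.05% beside 5.4%). The count was 13 with total counts alone (9.92% beside 19.2%) and 7 with the length and GC trend removed (5.34% beside 7.48%). It was 17 with limma-voom quality weights (13% beside 17.5%) and 11 by DESeq2 (8.4% beside 11.6%). By limma on log2(FPKM + 1) and log2(FPKM + 0.1) it was 7 (5.34% beside 13.8%) and 10 (7.63% beside 15.9%). Without both MTP 4 and MTP+CR 4, an alternative chosen after seeing the data, it was 18 (13.7% beside 16.9%). In MTP+CR against MTP livers edgeR called 10 (7.63% beside 12.4%). The count was 46 with total counts alone (35.1% beside 29.8%) and 3 with only the compared groups fitted (2.29% beside 2.17%). It was 22 both with limma-voom (16.8% beside 21.2%) and by DESeq2 (16.8% beside 21.8%). By limma on FPKM it was 28 (21.4% beside 22.2%) and 41 (31.3% beside 29.6%), and without both libraries 24 (18.3% beside 21.8%). The 3 members called in MTP+CR against Control livers by DESeq2 were the exception to a count of 0 under every other alternative. The corepressor count in MTP against Control livers was 3 with total counts and 3 without both libraries. In MTP+CR against MTP livers it was 1 with RLE factors, 10 with total counts and 0 with the length and GC trend removed. In these fits 19.2% and 16.9% of all genes were called in the former comparison, and 12.5%, 29.8% and 10.9% in the latter. The members' median was 0.38 with total counts in MTP against Control livers (all genes 0.50), -0.61 in MTP+CR against MTP livers (all genes -0.54), and -0.042 with the length and GC trend removed in MTP+CR against Control livers. Apart from the scalings' own shift of all genes, the cause was not tested.

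When 1 library was left out, the calls in MTP against Control livers ran between 2 (without Control 3, MTP 1 or MTP 3) and 16 (without MTP 4). These were 1.53% and 12.2% of members, beside 1.58% to 2.16% and 12.9% of all genes. In MTP+CR against MTP livers the calls ran between 2 (without MTP 3 or MTP+CR 1) and 29 (without MTP 4). These were 1.53% and 22.1% of members, beside 1.7% to 2.6% and 25.8% of all genes. In MTP+CR against Control livers they stayed at 0. The corepressor counts ran between 0 and 2 and between 0 and 5 in the first and second comparison, and the members' medians between -0.13 and -0.05, -0.18 and -0.03, and -0.28 and -0.12 in the 3 comparisons. The replicate numbers were not taken as pairs, and a replicate block gave 3, 7 and 0 calls in the 3 comparisons. These were 2.29%, 5.34% and 0% of members, beside 3.55%, 9.4% and 0.434% of all genes. By depth, 50 members averaged under 10 CPM, and how this bears on the calls was not tested.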

Other observations

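Zfp genes under the count limit were outside the members, and 175 of 245 had enough counts to be tested. In MTP against Control livers 1 of them was called higher and 9 lower by edgeR, 5.71% of the 175 beside 5.4% of all genes, and in MTP+CR against MTP livers 5 were called higher and 2 lower, 4% beside 12.4%. In MTP+CR against Control livers none was called, beside 1.33% of all genes. At an unadjusted p under 0.05 there were 4 higher and 33 lower of the 175, beside 22% of all genes (1689 higher and 1647 lower). The median log2 fold change of the 175 was -0.42, with 129 negative, beside -0.02 over all genes. Their mean CPM had a median of 2.64, so single genes among them rest on few reads.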
